A study of Drosophila melanogaster with 2 samples.

Results

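The genes described here build, line or cut the chitin and mucin layers of insect surfaces. They are the 43 of 17737 genes in the deposited tables whose symbols begin with Muc, Mur, Cht or Cda followed by a digit, or with Peritrophin or obst-. They comprise 19 mucin or mucin-related genes, 10 chitinases, 8 obstructors, 3 chitin deacetylases and 3 peritrophins. The symbol alone decided membership, and no measured value was used.

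The fly midgut is lined by the peritrophic matrix, a sheet of chitin fibres and chitin-binding proteins that keeps food and microbes away from the epithelium. Peritrophins are secreted proteins that bind chitin, and obstructors are related chitin-binding proteins known mainly from cuticle. Mucins carry O-linked sugars, the first of which is attached by enzymes of the Pgant family. Chitinases cut chitin, and chitin deacetylases remove its acetyl groups. In flies the matrix is formed at the cardia, where foregut and midgut meet.

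The study compared midguts of flies that block the immune deficiency (IMD) pathway in progenitors with midguts of control flies, by droplet-based single-cell RNA sequencing of 1 library each. The esgts/D30A flies were w; esgGal4, tubGAL80[ts], UASGFP/+; UAS-ImdD30A/+, and the esgts/+ flies were w; esgGal4, tubGAL80[ts], UASGFP/+; +/+. Both carried the esg driver, which acts in intestinal progenitors, the temperature-sensitive GAL80 repressor and GFP, and ImdD30A, a form of Imd that cannot be cleaved, was carried by esgts/D30A alone. Each library pooled 27 guts of virgin females that were raised at 18 °C and kept at 29 °C for 10 days as adults. With 1 library for each genotype, no test between genotypes was possible, and a difference has no replicate check. Intervals in parentheses are 95% intervals for counting error only and do not cover the spread between flies.

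The filters kept 4083 of 6322 barcodes in esgts/D30A and 3958 of 4242 in esgts/+. The kept cells held 49454149 UMIs (unique molecular identifiers, each standing for 1 captured transcript) in esgts/D30A and 29880959 in esgts/+, with medians of 1698 and 1235 UMIs per cell. Mitochondrial transcripts exceeded 25% of UMIs in 31.9% of esgts/D30A barcodes and in 3.39% of esgts/+ barcodes. This sign of RNA quality differed between the libraries, and its part in the differences below was not tested. The libraries shared 125 kept barcode sequences.

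Cells were clustered without the 43 genes and without the related genes named at the end, so that the levels below did not shape the clusters. Progenitor-like cells numbered 624 in esgts/D30A and 630 in esgts/+, and all 7 progenitor markers were higher in them than in other cells. Enterocyte-like cells numbered 2293 and 2633, with 16 of 19 enterocyte markers higher. Enteroendocrine-like cells numbered 171 and 176, with 14 of 14 markers higher, and copper cell-like cells 125 and 103, with 4 of 5. The cluster with the highest pgant4, called pgant4 cells here, held 372 esgts/D30A cells and 35 esgts/+ cells, with 922 and 10 pgant4 UMIs. The cluster with the highest summed Peritrophin-15 level, called Peritrophin-15 cells, held 43 and 39 cells and is also 1 of the enterocyte-like clusters. Other clusters are called by their 2 leading genes. Levels are given in CPM, the UMIs of a gene scaled to the UMIs of its cell group in counts-per-million.

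Few of the 43 genes were abundant. Over both libraries 13 had at least 200 UMIs in kept cells, another 13 had at least 20, and 17 had fewer than 20, of which Mur82C, Muc91C, obst-J, Mur11Da, Muc4B, Cda4 and Muc12Ea had 0. The 3 peritrophins took 62.8% of all UMIs of the 43 genes, the mucins 27.9% and the chitinases 8.99%. The abundant genes had their highest levels in different cells, as the map of levels by cell group shows.

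**Figure D1:**
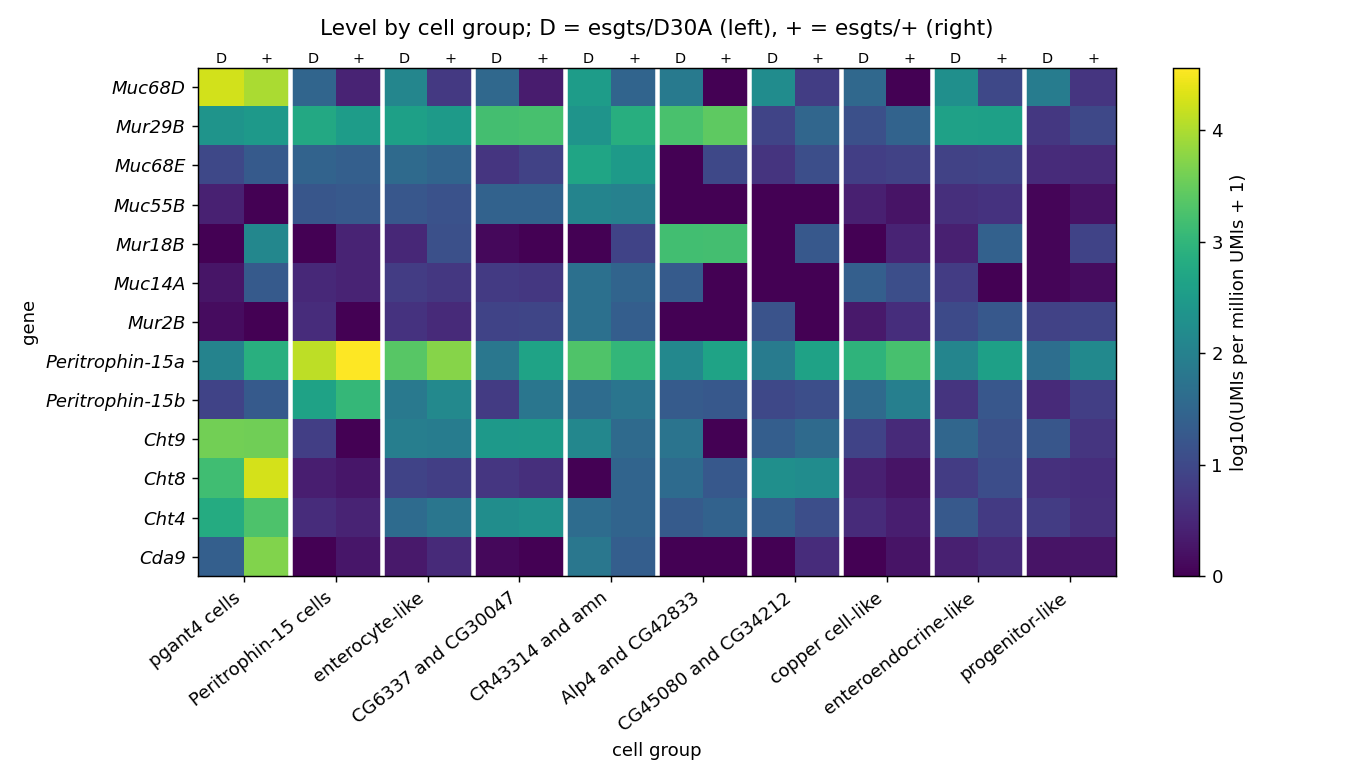
Level of the 13 genes with at least 200 UMIs (rows) in 10 cell groups (columns), as log10 of CPM plus 1, with esgts/D30A left of esgts/+ in each pair. Muc68D, Cht9 and Cht4 are high in pgant4 cells of both genotypes, and Peritrophin-15a reached 12850 CPM in esgts/D30A and 36651 CPM in esgts/+ in Peritrophin-15 cells.

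Peritrophin-15a (FBgn0040959) and Peritrophin-15b (FBgn0040958) encode small chitin-binding proteins. They lie side by side on the minus strand of chromosome 2L, 724 bases apart, at 8395665 to 8396096 and 8394446 to 8394940 (BDGP6.54). Peritrophin-15a was the most abundant of the 43 genes, with 63003 UMIs in esgts/D30A and 98806 in esgts/+. In Peritrophin-15 cells it ran from 0 through a median of 58 to 8251 UMIs per cell in esgts/D30A, and from 0 through a median of 12 to 18882 in esgts/+. The median depth of these cells was 31956 UMIs in esgts/D30A and 2933 in esgts/+, so the UMIs per cell do not compare the genotypes. Few cells supplied much of it, since 7 cells held 50% of all Peritrophin-15a UMIs in the esgts/D30A library and 8 cells in the esgts/+ library.

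In Peritrophin-15 cells, 2 of the 26 genes with at least 20 UMIs were 2-fold or more higher than in all other kept cells in both libraries, where 1.41% of all genes passed the same rule. These were Peritrophin-15a and Peritrophin-15b, on which the cluster was chosen, so their excess is a description. Peritrophin-15a was 17.0-fold higher in esgts/D30A and 18.2-fold in esgts/+, and Peritrophin-15b 18.1-fold and 20.4-fold higher. Muc68D, Cht8, Cht4, Cht9, Muc14A and Mur18B, 6 of 26, were 2-fold or more lower there, where 21.6% of all genes were. Of 19 enterocyte markers, 5 were higher in these cells than in others (the digestive protease genes alphaTry, deltaTry, thetaTry, Jon65Aiv and Jon65Aiii) and 11 were lower. Of 5 cardia markers, 0 were higher and 3 lower, with pgant4 and odd at 0 UMIs, and 6 of 6 fat body markers were at 0.

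Other enterocyte-like clusters held both transcripts at lower levels. Peritrophin-15a was at 2859 CPM in esgts/D30A and 5550.4 CPM in esgts/+ in CG7542 and LysC cells, 2.85-fold and 2.20-fold above other cells. In Zip42C.2 and CG5773 cells it was at 2557 CPM in esgts/D30A and 6949.7 CPM in esgts/+, 2.02-fold and 2.12-fold above other cells. The balance of the pair differed between clusters. For every 1000 Peritrophin-15a UMIs, CG7542 and LysC cells had 20.1 (18.2 to 22.2) Peritrophin-15b UMIs in esgts/D30A and 15.7 (14.5 to 16.9) in esgts/+. Peritrophin-15 cells had 33.3 (31.1 to 35.5) and 29.8 (28.1 to 31.6), and Zip42C.2 and CG5773 cells had 65.5 (46.8 to 89.6) and 66.9 (54.9 to 80.8). The order of these 3 clusters was the same in both genotypes, and their intervals did not overlap within either genotype. The intervals do not cover the spread between cells, and 1 cell held 5703 of the 20702 Peritrophin-15a UMIs of CG7542 and LysC cells in esgts/D30A. Other clusters lay elsewhere, with 80.2 and 139.8 in CG6337 and CG30047 cells and 19.5 and 54.8 in CR43314 and amn cells.

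Between genotypes, Peritrophin-15a was 2-fold or more lower in esgts/D30A in 5 of the 6 groups compared. Enterocyte-like cells had 2372 CPM in esgts/D30A, against 5459.7 CPM in esgts/+, a log2 ratio of -1.20 (-1.22 to -1.19). The log2 ratio was -1.75 (-1.90 to -1.60) in progenitor-like cells, -1.74 (-2.03 to -1.45) in enteroendocrine-like cells, -1.51 (-1.53 to -1.49) in Peritrophin-15 cells and -2.78 (-3.26 to -2.26) in pgant4 cells. Copper cell-like cells, at -0.85 (-0.91 to -0.79), fell short of 2-fold. The value in Peritrophin-15 cells was 0.14 when the libraries were merged without integration and -2.04 (-2.08 to -2.00) without barcodes over 100000 UMIs. Without those barcodes the value in pgant4 cells was -1.09 (-1.57 to -0.57). Peritrophin-15b was at 68.8 CPM in esgts/D30A and 138 CPM in esgts/+ in enterocyte-like cells, and its log2 ratio was -1.35 (-1.48 to -1.23) in Peritrophin-15 cells and -1.31 (-2.02 to -0.62) in progenitor-like cells.

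Peritrophin-15a transcripts were found in every class. After each cell was thinned to 600 UMIs, 33.4% of enterocyte-like cells had at least 1 of its UMIs in esgts/D30A and 56.8% in esgts/+. The thinned shares were 9.36% and 23.6% in enteroendocrine-like cells, and 7.53% and 12.97% in progenitor-like cells, where the unthinned shares were 53.5% and 72.4%. The thinned shares in progenitor-like cells were the lowest of the 6 groups. Digestive enzyme markers of enterocytes were lower in esgts/D30A in the same groups, with 10 of 18 tested markers 2-fold or more lower in progenitor-like cells and 8 of 18 in enteroendocrine-like cells, where 2.6% and 3.47% of all genes were. The 19 markers summed to 3094 CPM in progenitor-like cells of esgts/D30A and 6736 CPM in those of esgts/+, with gammaTry alone at 0. RNA released from enterocytes was not tested as the source of Peritrophin-15a in other classes.

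Muc68D (FBgn0036203, chromosome 3L, 11767299 to 11772157, minus strand) encodes a mucin and differed widely between the libraries, with 50004 UMIs in esgts/D30A and 631 in esgts/+. The pgant4 cells held 45062 and 508 of them. In these cells it ran from 0 through a median of 20.5 to 9055 UMIs per cell in esgts/D30A, and from 0 through a median of 2 to 94 in esgts/+. The pgant4 cells made up 9.11% of kept cells in esgts/D30A and 0.884% in esgts/+, and the library totals carry that difference too.

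Beside Muc68D, 4 chitinases and a deacetylase were high in the same cluster. In pgant4 cells 6 of 26 genes were 2-fold or more higher than in other cells in both libraries (Muc68D, Cht9, Cht8, Cht4, Cht5 and Cda9), where 0.855% of all genes passed the same rule. With the class defined by the pgant4 transcript, 3 were higher. Of the 64 Cht5 UMIs in pgant4 cells of esgts/D30A, 54 came from 1 cell, and without it Cht5 was at 4.10 CPM there, against 0.320 CPM in other cells. Peritrophin-15a and Peritrophin-15b were lower, 2 of 26, where 7.45% of all genes were. Muc68D was at 17982 CPM in pgant4 cells of esgts/D30A, against 105.3 CPM in its other cells. In esgts/+ it was at 9519.7 CPM in pgant4 cells, against 4.12 CPM in other cells. Of 5 cardia markers, pgant4, which chose the cluster, was the only one higher than in other cells in both libraries.

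Within the cluster, 5 esgts/D30A barcodes stood apart with 177402 to 697628 UMIs. They held 29743 of the 50004 Muc68D UMIs of that library, and CG14645 took 28.5% to 36.5% of their UMIs. No esgts/+ barcode of the cluster had over 100000 UMIs. The log2 ratio of Muc68D in pgant4 cells was 0.92 (0.79 to 1.05) with these barcodes and 1.10 (0.98 to 1.24) without barcodes over 100000 UMIs.

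Muc68D and Cht8 lay in different cells of the cluster, as the plot of both genes in each cell shows. The split was seen in the data, with its limit of 10 UMIs set afterwards, and is a description. In esgts/D30A 308 cells had at least 10 Muc68D UMIs, 11 had at least 10 Cht8 UMIs, and 1 had both, a barcode of 402359 UMIs. In esgts/+ 14 cells had at least 10 Muc68D UMIs, 4 had at least 10 Cht8 UMIs, and 0 had both. The other cells, 54 in esgts/D30A and 17 in esgts/+, reached neither limit. Those of esgts/+ had medians of 617 UMIs and 4 CG14645 UMIs, and 0 had a pgant4 UMI. Those of esgts/D30A had medians of 942.5 and 102.5, and 5 had a pgant4 UMI. Ratios between genotypes in pgant4 cells thus compare groups of unlike make-up. Cht5, a chitinase known from moulting cuticle, was found in 6 of the 11 Cht8-rich cells of esgts/D30A and in 3 of the 4 of esgts/+. It was found in 0 of the Muc68D-rich cells of either library. The pgant4 transcript was found in 136 Muc68D-rich and 3 Cht8-rich cells of esgts/D30A, and in 7 and 0 of esgts/+. Cht9 was found in both kinds, in 249 Muc68D-rich and 10 Cht8-rich cells of esgts/D30A, and in 5 and 4 of esgts/+.

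**Figure D2:**
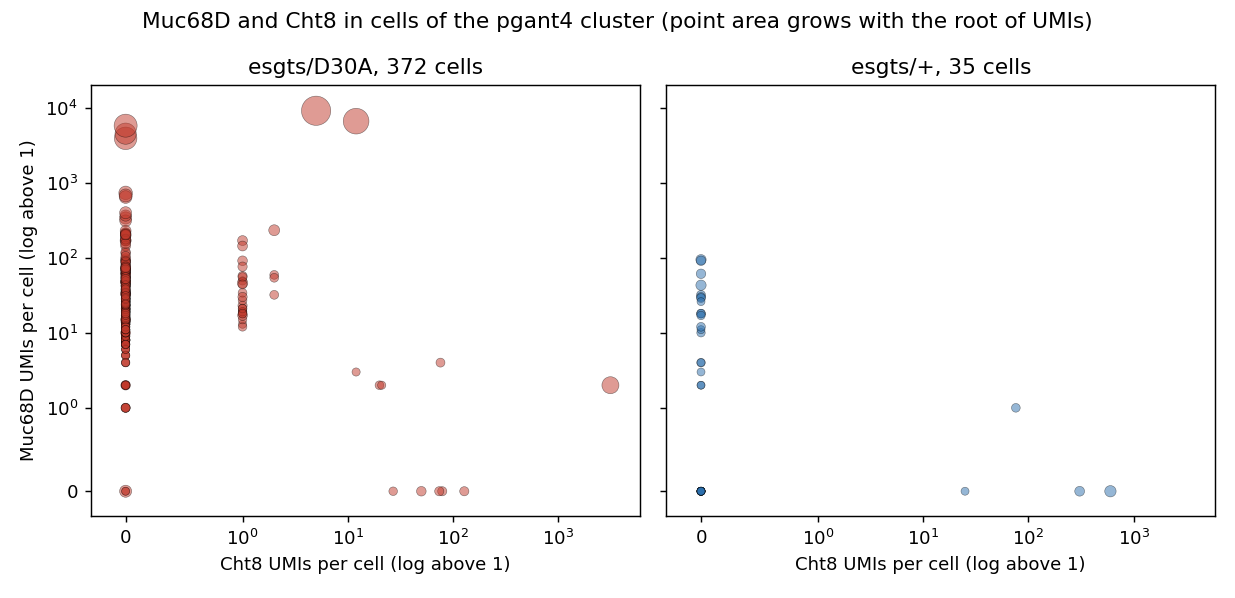
UMIs of Cht8 (x axis) and Muc68D (y axis) in each cell of the pgant4 cluster, on axes that are logarithmic above 1, with the 372 cells of esgts/D30A left and the 35 cells of esgts/+ right, and points sized by total UMIs. Only 1 barcode, in esgts/D30A, had at least 10 UMIs of both genes.

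Cht8, Cht12, Cht4 and Cht9 are neighbouring chitinase genes on chromosome 2R, from 21061646 to 21069286 (BDGP6.54). Cht8 and Cht12 overlap by 35 bases on opposite strands, so reads in the overlap could be counted for either gene if strand was not used. Cht9 was at 3855 CPM in esgts/D30A and 3823 CPM in esgts/+ in pgant4 cells, 71.7-fold and 77.8-fold above other cells, and Cht4 at 655 CPM in esgts/D30A and 1911 CPM in esgts/+, 22.4-fold and 50.4-fold above. Barcodes over 100000 UMIs held 819 of the 1641 Cht4 UMIs of these cells in esgts/D30A, and without them Cht4 was at 1099 CPM there. Cht8 rested on few cells. In esgts/D30A 1 cell held 3133 of its 4088 UMIs and in esgts/+ 1 cell held 602 of 1220. Without those cells Cht8 was at 219 CPM in pgant4 cells of esgts/D30A, against 8.95 CPM in its other cells. In esgts/+ the same levels were 9092 CPM in pgant4 cells, against 7.04 CPM in other cells.

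Cda9 (FBgn0034197), named as a chitin deacetylase, had 58 UMIs in pgant4 cells of esgts/D30A and 264 in those of esgts/+, of which 260 came from 1 cell that also had 307 Cht8 UMIs. Its log2 ratio there, -7.74 (-8.18 to -7.32), rests largely on that cell, and without the cell richest in Cda9 in each library the levels were 12.3 CPM in esgts/D30A and 80.1 CPM in esgts/+. Cht8 had a log2 ratio of -3.69 (-3.79 to -3.59) in pgant4 cells, which was -1.96 (-2.06 to -1.85) without barcodes over 100000 UMIs and 3.69 among cells defined by the pgant4 transcript alone. The enterocyte markers summed to 6971 CPM in pgant4 cells of esgts/D30A and 42895 CPM in those of esgts/+, and 17 of 17 tested were 2-fold or more lower in esgts/D30A. Their part in the chitinase values was not tested. In all, 6 of 11 genes tested in pgant4 cells were 2-fold or more lower in esgts/D30A, where 42% of all genes were, and 0 were higher, where 2.58% of all genes were. The lower genes were Cht4, Cht5, Cht8, Cda9, Muc68E and Peritrophin-15a. Without barcodes over 100000 UMIs, 3 were lower and 2 higher, with Cht4 at -0.80 (-1.10 to -0.49) and Muc68E at 0.65 (-1.98 to 6.02). With the class defined by the pgant4 transcript, 2 were lower and 3 higher. The share of all genes called lower is large, and relative to the median of all genes, -0.75, the counts were 4 lower and 2 higher, where 20.4% and 8.65% of all genes were. The obstructor gene obst-H had 54 UMIs in these cells of esgts/D30A, 29 of them in 1 barcode, and 0 in esgts/+, whose 35 cells held 53363 UMIs in all, so no fold is given.

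Muc68D was also found in every other class of esgts/D30A. In progenitor-like cells it was at 81.6 CPM in esgts/D30A and 4.16 CPM in esgts/+, a log2 ratio of 4.29 (3.77 to 4.87). The log2 ratio was 4.69 (4.37 to 5.03) in enterocyte-like cells, 4.44 (3.37 to 5.77) in enteroendocrine-like cells and 4.05 (2.14 to 7.13) in Peritrophin-15 cells, and copper cell-like cells had 153 UMIs in esgts/D30A and 0 in esgts/+. After thinning to 600 UMIs, a Muc68D UMI was found in 28.7% of enterocyte-like cells of esgts/D30A and 1.09% of esgts/+, and in 15.4% and 1.30% of progenitor-like cells. The thinned shares were 16.4% and 1.72% in enteroendocrine-like cells and 5.60% and 0% in copper cell-like cells. Unthinned, 72.8% of progenitor-like cells of esgts/D30A and 4.13% of esgts/+ had it, at median depths of 15284 and 9025 UMIs.

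**Figure D3:**
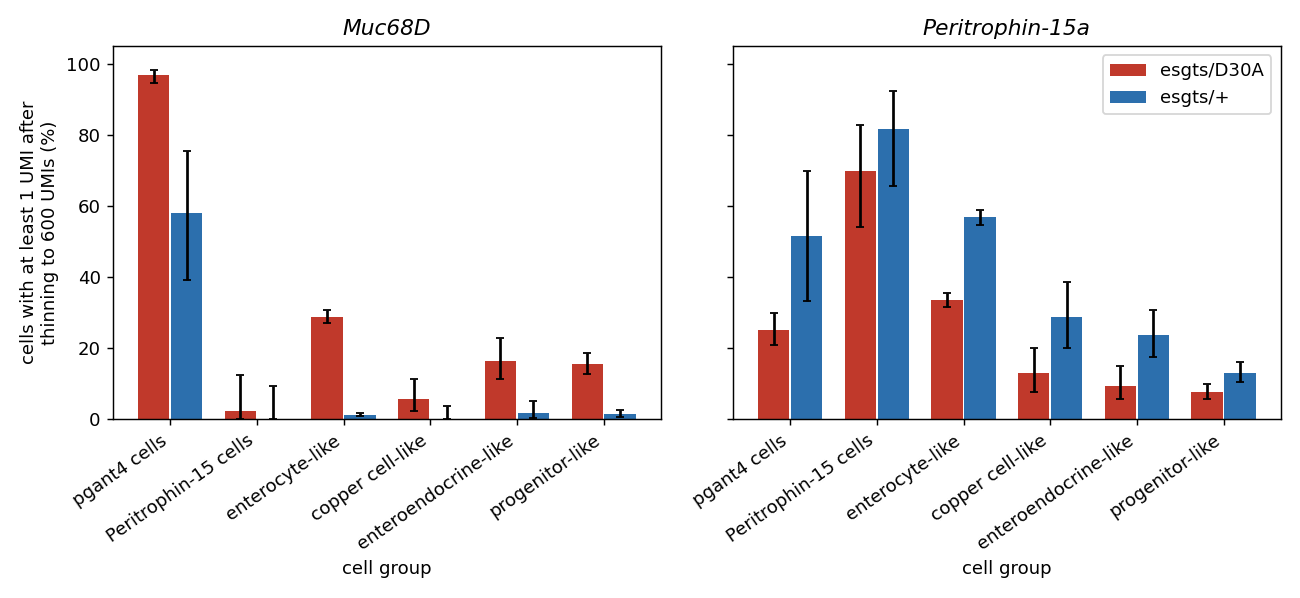
Percent of cells with at least 1 UMI of Muc68D (left) and Peritrophin-15a (right) after thinning each cell to 600 UMIs, by cell group, with esgts/D30A left of esgts/+ and exact 95% intervals as bars. Muc68D was found in 96.8% of pgant4 cells of esgts/D30A and 58.1% of esgts/+, and Peritrophin-15a was more frequent in esgts/+ in all 6 groups.

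CG14645, the transcript that led the large barcodes, moved with Muc68D across these classes. For every 100 CG14645 UMIs there were 8.41 (7.89 to 8.95) Muc68D UMIs in progenitor-like cells of esgts/D30A and 7.58 (5.04 to 10.99) in those of esgts/+. Enterocyte-like cells had 7.89 (7.59 to 8.20) and 6.05 (4.76 to 7.58), and enteroendocrine-like cells 8.26 (7.22 to 9.43) and 6.80 (2.67 to 14.5). In pgant4 cells of esgts/D30A the ratio was 5.13 (5.07 to 5.19) in the 5 large barcodes and 10.9 (10.7 to 11.1) in the other 367. The 3 classes named had values between these in esgts/D30A. In the 35 pgant4 cells of esgts/+ the ratio was 6.25 (5.71 to 6.84). Barcodes left out by the filters had Muc68D at 953 CPM in esgts/D30A and 45.2 CPM in esgts/+. Cht9, with 71.2% of its UMIs in pgant4 cells, was set beside CG14645 in the same way. Progenitor-like cells had 1.61 (1.39 to 1.85) Cht9 UMIs for every 100 in esgts/D30A and 7.32 (4.84 to 10.7) in esgts/+. In pgant4 cells of esgts/D30A there were 1.19 in the 5 large barcodes and 1.99 in the other 367, and 2.51 in esgts/+. Enteroendocrine-like cells had 1.37 and 9.71. Enterocyte-like cells lay far from these, with 5.61 (5.36 to 5.86) in esgts/D30A and 102 (94.7 to 110) in esgts/+. RNA released from pgant4 cells was not tested as the source of Muc68D or Cht9 in other classes. Such transcripts cannot be told apart from transcripts made there.

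Mur29B (FBgn0051901, chromosome 2L, 8352187 to 8355172), a mucin-related gene, followed another pattern, with 11717 UMIs in esgts/D30A and 7726 in esgts/+. Its highest level was in Alp4 and CG42833 cells, at 1772 CPM in esgts/D30A and 2717 CPM in esgts/+. In esgts/D30A the richest of the 8 cells held 59 of the 93 Mur29B UMIs of that cluster. The esgts/D30A level there thus rests largely on that cell, and the level without it was not computed. In esgts/+ the richest of the 40 cells held 101 of 312. The CG6337 and CG30047 cells held the most Mur29B UMIs, 5753 in esgts/D30A and 2769 in esgts/+. In CG6337 and CG30047 cells it ran from 0 through a median of 3 to 585 UMIs per cell in esgts/D30A, and from 0 through a median of 2 to 1234 in esgts/+. Its level there was 1571 CPM in esgts/D30A and 1739 CPM in esgts/+, 12.1-fold and 9.93-fold above other cells, and the log2 ratio between genotypes was -0.15 (-0.21 to -0.08). Mur29B was also raised in CG7191 and Dh31 enteroendocrine-like cells, at 808 and 828 CPM, 3.48-fold and 3.26-fold above other cells.

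The CG6337 and CG30047 cells, an enterocyte-like cluster, also had some cardia markers above other cells. Of the 5, odd, drm and bowl were 1.5-fold or more higher and found in at least 10% of cells. The others, fkh and pgant4, did not pass that rule, and pgant4 was lower, at 0.104-fold the level of other cells. There 5 of 26 genes were 2-fold or more higher than in other cells in both libraries (Mur29B, Cht4, Muc55B, Cht12 and Muc30E), where 10.3% of all genes passed the same rule. Cht4 was at 169 CPM in esgts/D30A and 206 CPM in esgts/+, 3.23-fold and 6.44-fold above other cells. Muc55B, a mucin gene, was at 26.8 CPM in esgts/D30A and 26.4 CPM in esgts/+, 3.69-fold and 3.64-fold above. Cht12, which reached 20 UMIs only through these cells, and Muc30E rested on few UMIs, 8 and 13 in esgts/D30A and 6 each in esgts/+. CS-2, a chitin synthase gene outside the name rule, had 50.7% of its UMIs in the same cells. It was at 516 CPM there in esgts/D30A, against 32.2 CPM in other cells, and at 285 CPM in esgts/+, against 28.6 CPM.

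Mur18B (FBgn0030999), a mucin-related gene on the X chromosome, was highest in Alp4 and CG42833 cells, at 1524 CPM in esgts/D30A and 1611 CPM in esgts/+, a log2 ratio of -0.08 (-0.48 to 0.31). Single cells carried much of it, with 78 of 80 UMIs in 1 cell of esgts/D30A and 93 of 185 in 1 cell of esgts/+. Without the richest cell of each library the level was 39.5 CPM in esgts/D30A, from 2 UMIs, and 812 CPM in esgts/+, so in esgts/D30A both the ratio and the place above other clusters rested on 1 cell. Next came the Alp2 and CG6733 cells, at 894 CPM in esgts/D30A and 326 CPM in esgts/+. In the main classes it was lower in esgts/D30A. Progenitor-like cells had 2 UMIs in esgts/D30A and 53 in esgts/+, a log2 ratio of -5.58 (-8.66 to -3.66). Enterocyte-like cells had 52 and 197, at -2.40 (-2.87 to -1.95), and enteroendocrine-like cells 2 and 20, at -3.99 (-7.13 to -1.95). The number of Alp4 and CG42833 cells, 8 in esgts/D30A and 40 in esgts/+, and of Alp2 and CG6733 cells, 27 and 175, differed in the same direction, and their part in these levels was not tested.

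Enterocyte-like cells had 4 of 26 genes 2-fold or more higher than in other cells in both libraries (Peritrophin-15a, Peritrophin-15b, Muc68E and Muc55B), where 7.69% of all genes were, and 9 lower, where 31.6% of all genes were. Among the 9, Cht6 and Cht10 reached the minimum of 20 UMIs only through progenitor-like cells, and Cda5 only through enteroendocrine-like cells. Their place in the count of lower genes is no support. The mucin gene Muc68E (FBgn0053265) was 6.59-fold and 3.44-fold higher and Muc55B (FBgn0034294) 9.45-fold and 5.31-fold higher. Both peaked in CR43314 and amn cells, an enterocyte-like cluster in which Muc68E was at 488 CPM in esgts/D30A and 305 CPM in esgts/+ and Muc55B at 112 CPM in esgts/D30A and 102 CPM in esgts/+. In that cluster 5 of 26 genes were higher than in other cells, the others being Cda9, Mur2B and Muc14A, where 14.9% of all genes were. These calls rested on few UMIs. Mur2B had 6 in esgts/D30A and 3 in esgts/+, Muc14A 6 and 4, Cda9 at most 8 and 4, and Muc55B 14 and 14. Muc68E had 61 and 42, and 22 of the 61 were in 1 cell. In enterocyte-like cells the log2 ratio between genotypes was 0.38 (0.21 to 0.54) for Muc68E and 0.36 (0.12 to 0.61) for Muc55B, close to the median of all genes, 0.42.

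In copper cell-like cells, which secrete acid, Muc14A (FBgn0052580), a mucin gene on the X chromosome, was the only gene of 26 that was 2-fold or more higher than in other cells in both libraries, where 5.66% of all genes were. It had 107 UMIs in esgts/D30A and 32 in esgts/+, 7.28-fold and 3.61-fold above other cells. Its log2 ratio between genotypes, 1.00 (0.41 to 1.61), fell just short of 2-fold before rounding. In CR43314 and amn cells it had 6 UMIs in esgts/D30A and 4 in esgts/+, or 48.0 CPM in esgts/D30A and 29.0 CPM in esgts/+, and in esgts/+ the interval (7.91 to 74.3 CPM) held the copper cell-like level of 11.7 CPM.

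Progenitor-like cells, in which the esg driver acts, were poor in these genes. There 16 of 26 were 2-fold or more lower than in other cells in both libraries, where 22.4% of all genes were, and 2 were higher, where 22.6% of all genes were. Among the 16, Cda5 reached the minimum of 20 UMIs only through enteroendocrine-like cells, so its place there is no support. The higher genes were the chitinase genes Cht6, with 12 UMIs in esgts/D30A and 4 in esgts/+, and Cht10, with 17 and 4. Elsewhere Cht6 had 2 and 2 UMIs and Cht10 14 and 1, so both reached the minimum of 20 UMIs only through these cells, and their count is no support. Mur2B (FBgn0025390), a mucin-related gene, was at 9.56 CPM in esgts/D30A and 10.4 CPM in esgts/+ in 1 progenitor-like cluster, CG15629 and CG44085, 2.56-fold and 3.21-fold above other cells. Its log2 ratio between genotypes in all progenitor-like cells was -0.17 (-0.67 to 0.34).

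Enteroendocrine-like cells, the hormone-secreting cells of the gut, had 4 of 26 genes 2-fold or more higher than in other cells in both libraries (Cda5, Muc96D, Mur2B and Cht5), where 31.3% of all genes were, and 8 lower, where 6.46% of all genes were. Cda5, a chitin deacetylase gene, had 14 UMIs in esgts/D30A and 18 in esgts/+, 58.7-fold and 109-fold above other cells. Outside this class Cda5 had 9 UMIs in esgts/D30A and 6 in esgts/+, so it reached the minimum of 20 UMIs only through the class, and its place in the count is no support. Muc96D had 9 and 5 UMIs and Cht5 4 and 4. All 11 Muc26B UMIs, 2 in esgts/D30A and 9 in esgts/+, were in NPF and Scp2 cells, a cluster led by the gene of neuropeptide F.

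The CG13285 and to cells took no class name and held a few markers of several tissues above other cells. Those 1.5-fold or more higher in at least 10% of cells were grh (cuticle), fkh and drm (cardia) and apolpp (fat body). Dl and N (progenitor), bt (visceral muscle) and Irk2 (Malpighian tubule) also passed. The other markers of these lists did not, among them odd, Gasp and Yp3, which were also higher. The cardia marker pgant4 was at 0.645-fold in these cells. The obstructor gene obst-E was at 142 CPM in esgts/D30A and 147 CPM in esgts/+ there, from 108 and 14 UMIs. It was the only gene of 26 that was 2-fold or more higher than in other cells in both libraries, where 7.28% of all genes were. Peritrophin-A had 35 UMIs in esgts/D30A, 21 of them in 1 cell, and 0 in esgts/+, and 97.1% were in this cluster. Cht7 had 16 UMIs in esgts/D30A and 0 in esgts/+, 87.5% of them in the same cluster. Muc68Ca had 54 of its 73 esgts/D30A UMIs in 1 cell of the CG45080 and CG34212 cluster, and 14 UMIs in esgts/+.

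The 13 genes of intermediate count ran from 14 UMIs in esgts/D30A and 6 in esgts/+ for Cht6 to 130 and 34 for obst-E. Of these, Cht2, Cht5 and obst-H had their highest levels in pgant4 cells, which held 63.8%, 74.0% and 84.4% of their UMIs. The 10 genes with 1 to 17 UMIs were Muc11A, Cht7, Muc26B, obst-I, Muc18B, obst-A, obst-B, obst-F, Mur89F and obst-G, and no ratio is given for them. Muc11A had 7 UMIs in esgts/D30A and 10 in esgts/+, with 47.1% in Alp4 and CG42833 cells, where Mur18B was also highest.

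Between genotypes, 4 of 13 genes tested in progenitor-like cells were 2-fold or more higher in esgts/D30A (Muc68D, Cht9, Cht11 and Cht10), where 8.09% of all genes were. Another 3 were lower (Mur18B, Peritrophin-15a and Peritrophin-15b), where 2.6% of all genes were. In enterocyte-like cells 3 of 16 were higher (Muc68D, Cht2 and Cht11), where 17% of all genes were, and 4 were lower (Mur18B, Cda9, Peritrophin-15a and Peritrophin-15b), where 1.07% of all genes were. In enteroendocrine-like cells 3 of 8 were higher (Muc68D, Cht4 and Cht9), where 6.4% of all genes were, and 3 were lower (Mur18B, Cda5 and Peritrophin-15a), where 3.47% of all genes were. In copper cell-like cells 2 of 7 were higher (Muc68D and Cht9), where 11.4% of all genes were, and 2 were lower (Mur29B and Peritrophin-15b), where 1.67% of all genes were. In Peritrophin-15 cells 1 of 6 was higher (Muc68D), where 16.2% of all genes were, and 2 were lower (Peritrophin-15a and Peritrophin-15b), where 4.28% of all genes were. Cht4 in enteroendocrine-like cells had 23 UMIs in esgts/D30A and 4 in esgts/+, and its log2 ratio of 1.86 (0.31 to 3.85) became -1.04 with no doublet removal. Cht2, a chitinase gene, had 24 UMIs in enterocyte-like cells of esgts/D30A and 3 in those of esgts/+, and Cda9 had 25 and 42. Some genes met the minimum of 20 UMIs only through the library in which they were higher. Among them were Cht11 and Cht10 in progenitor-like, Cht2 in enterocyte-like and Mur18B in enteroendocrine-like cells. Their place in the counts is no support. The calls of Cht10 and of Cda5 in enteroendocrine-like cells rest on the few UMIs given above. The plot of log2 ratios gives the abundant genes with their intervals.

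**Figure D4:**
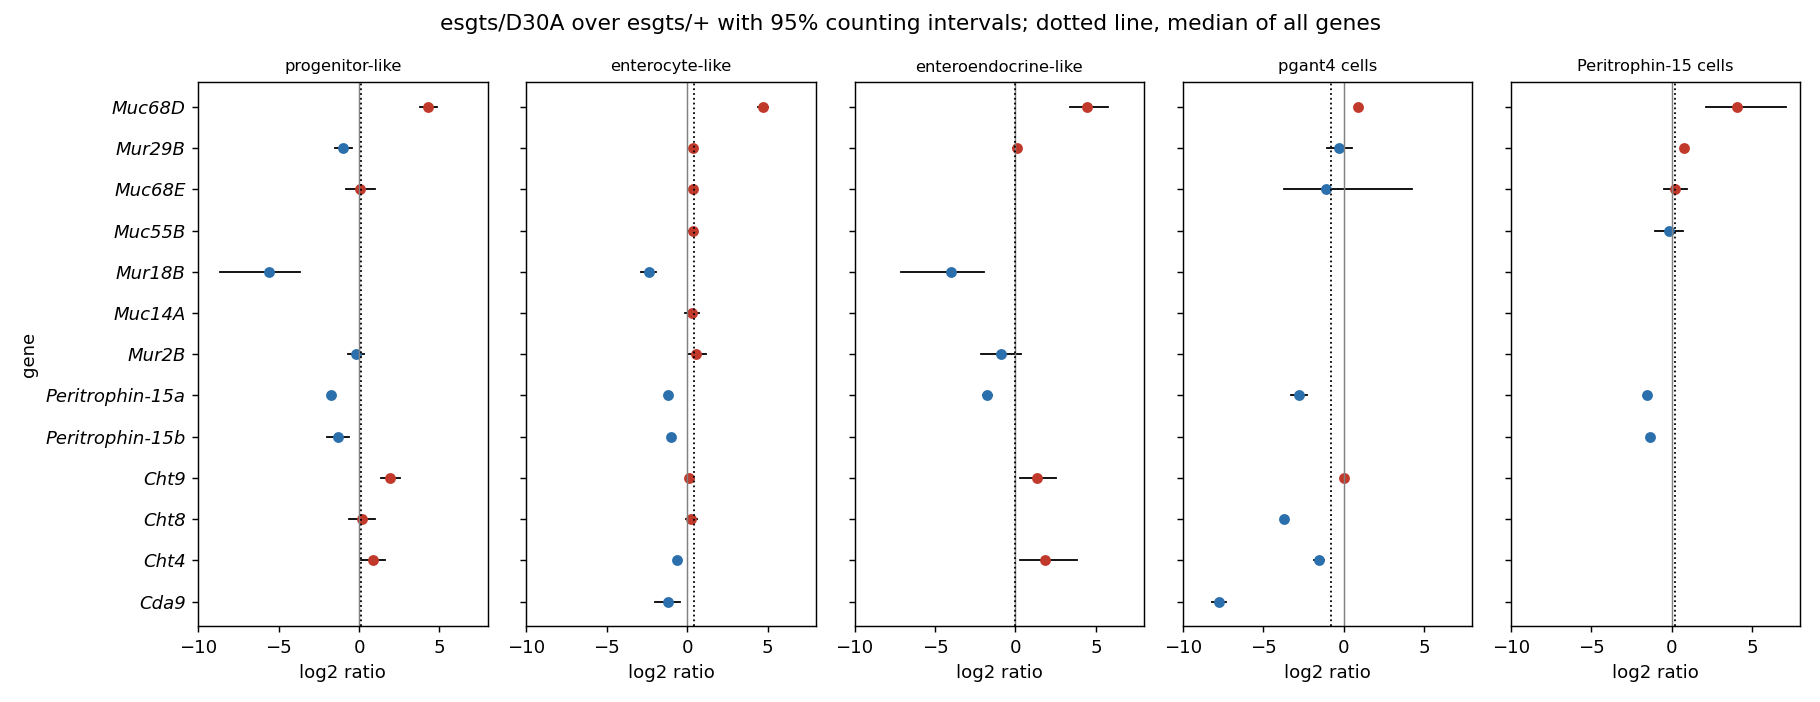
log2 ratio of CPM, esgts/D30A over esgts/+, for the abundant genes with at least 20 UMIs in the group, in 5 cell groups, with 95% counting intervals (lines), values above 0 in red and below 0 in blue, and the median of all genes as a dotted line. Muc68D lies between 4.05 and 4.69 outside pgant4 cells and at 0.92 in them, and Peritrophin-15a lies below 0 in all 5 groups.

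Over all genes, the median log2 ratio was 0.14 in progenitor-like cells, 0.42 in enterocyte-like cells and 0.21 in Peritrophin-15 cells. Relative to it, Muc68D stood at 4.15 in progenitor-like cells and 4.27 in enterocyte-like cells, and Peritrophin-15a at -1.89 and -1.63. Cht9 was at 15.6 CPM in esgts/D30A and 4.03 CPM in esgts/+ in progenitor-like cells, a log2 ratio of 1.95 (1.39 to 2.57), and its source there was not tested. In enterocyte-like cells Cht9 was at 88.1 CPM in esgts/D30A and 81.1 CPM in esgts/+, a log2 ratio of 0.12 (0.02 to 0.22). The last value pools clusters that differed in opposite directions. In LManV and LManII cells the log2 ratio was -2.36 (-2.72 to -2.01) for Cht9 and -4.29 (-4.78 to -3.83) for Cht4, while Cht9 stood at 2.15 (1.14 to 3.30) in Zip42C.2 and CG5773 cells and 3.33 (2.03 to 4.99) in Jon66Ci and Jon99Fi cells. The ratio of summed chitinases in enterocyte-like cells was -0.11 from summed UMIs and 0.99 as a mean over cells. Cht11, a chitinase gene, had 37 UMIs in progenitor-like cells of esgts/D30A and 1 in those of esgts/+.

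Genes outside the name rule that make chitin or attach mucin sugars were counted in the same way. Of 7 chitin synthesis genes, 6 were tested in enterocyte-like cells, where CS-2 and mmy, which makes the sugar donor for chitin, were 2-fold or more higher in esgts/D30A and 0 were lower, where 17% of all genes were higher and 1.07% lower. Of 11 O-glycosylation genes, 10 were tested there, with 4 higher (pgant4, pgant6, Pgant35A and C1GalTA) and 0 lower, beside the same shares of all genes. Among these, pgant4 had 57 UMIs in esgts/D30A and 4 in esgts/+, and Pgant35A 30 and 9. Of all pgant4 UMIs, 89.3% were in pgant4 cells, and RNA released from them was not tested as the source. Relative to the median of all genes, pgant4 stood at 2.93, while pgant6 (0.67), Pgant35A (0.84) and C1GalTA (0.64) fell short of 2-fold. The median log2 ratio was 0.52 over the tested chitin synthesis genes and 0.73 over the tested O-glycosylation genes, beside 0.42 over all genes. In enteroendocrine-like cells 6 of the 11 O-glycosylation genes were 2-fold or more above other cells in both libraries, where 31.3% of all genes were. Among them, CG30463 was at 919 CPM in Orcokinin and Mip cells of esgts/D30A and 913 CPM in those of esgts/+.

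Of 18 other chitin-binding or chitin-modifying genes, several followed single clusters. Idgf6 and Idgf4, which encode chitinase-like growth factors, had 94.9% and 59.1% of their UMIs in CG13285 and to cells, and Idgf3 had 57.3% in CG45080 and CG34212 cells. In enterocyte-like cells 8 of the 18 were tested between genotypes, with 3 higher in esgts/D30A (Crys, Idgf4 and Idgf6) and 0 lower, where 17% of all genes were higher and 1.07% lower. Their median log2 ratio was 0.02, beside 0.42 over all genes. In pgant4 cells 4 of the 18 were above other cells in both libraries (serp, Idgf3, Idgf4 and Hexo1), where 0.855% of all genes were.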

How the data were processed

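Single midgut cells were captured with the Chromium Single Cell 3′ system from 1 library for each genotype, after elastase digestion and an OptiPrep gradient. The deposited files hold raw UMI counts, 1 value for each gene in each barcode, which the authors obtained from Cell Ranger (3.0 per the labels, 3.0.2 in the matrix header). The submitters' notes also name Seurat 3.1.1. The genome build was not given in the sources used here, and coordinates are those of BDGP6.54. Names were matched to the files' own symbols.

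A barcode was kept if it had 200 genes or more and no more than 25% of its UMIs were mitochondrial, and the barcodes with the highest Scrublet scores (scanpy 1.11.5), 0.8% per 1000 barcodes, were removed as doublets, 218 in esgts/D30A and 140 in esgts/+. Clusters came from Seurat 5.3.0 in R 4.3.3 (anchor integration, 2000 variable genes without the genes described, 30 dimensions, resolution 0.8). A class name needed at least 3 markers, and the rule for ties was set after the clusters were seen. UMIs were summed over the cells of a group and library and scaled to CPM in Python 3.11.15 with numpy 2.4.6, pandas 2.3.3 and scipy 1.17.1. Ratios have exact conditional intervals and shares exact Clopper-Pearson intervals, at 95%. To be compared between genotypes, a gene needed 20 UMIs over both libraries in the group. To be compared between a group and other cells, it needed 20 UMIs over all kept cells of both libraries. There, a call of higher also needed 3 UMIs in the group in each library, and a call of lower 3 UMIs in the other cells. A call is a ratio of 2-fold or more by size, with no p-value, and a count of 0 was set to 3 counts as a bound. For shares at equal depth each cell was thinned to 600 UMIs, leaving out 393 shallower esgts/+ cells and 0 of esgts/D30A. The interval and call code was tested on simulated data. Genes with at least 200 UMIs were described with their values, those with fewer by count, range and leading cluster, and from each related list up to 5 with the most UMIs, while names given with a short count of calls were chosen after their values were seen. The members and lists were chosen with earlier results of these data known.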

Additional observations from a re-analysis of the deposited data

Results flagged for a closer look

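Cht4, a chitinase gene, moved in opposite directions between genotypes in 2 cell groups. Its log2 ratio, esgts/D30A over esgts/+, was 1.86 (0.31 to 3.85) in enteroendocrine-like cells, from 23 UMIs in esgts/D30A and 4 in esgts/+. In pgant4 cells it was -1.55 (-1.83 to -1.24), from 1641 and 102 UMIs, and -0.80 (-1.10 to -0.49) without barcodes over 100000 UMIs. The difference between the groups was not tested, since each genotype had 1 library, and neither sign held under every setting.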

How the results depend on the processing

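The log2 ratios to set beside the values below were 0.66 in enterocyte-like, 1.52 in progenitor-like, 0.43 in enteroendocrine-like and 0.87 in pgant4 cells for summed mucins. They were -1.20 in enterocyte-like and -1.51 in Peritrophin-15 cells for summed peritrophins, and -0.11 in enterocyte-like and -2.04 in pgant4 cells for summed chitinases. At a cluster resolution of 0.4, the log2 ratio was 0.91 in enterocyte-like cells for summed mucin, -1.16 in enterocyte-like and -1.33 in Peritrophin-15 cells for summed peritrophin and -0.46 in enterocyte-like cells for summed chitinase, and the counts were 1 in enterocyte-like cells for genes above other cells and 2 in Peritrophin-15 cells for genes higher in esgts/D30A. With the barcode filter tightened to 500 genes and 10% mitochondrial UMIs, the log2 ratio was 1.07 in enterocyte-like, 0.63 in enteroendocrine-like and 6.15 in pgant4 cells for summed mucin, -1.34 in enterocyte-like and -1.59 in Peritrophin-15 cells for summed peritrophin and -0.24 in enterocyte-like and -3.93 in pgant4 cells for summed chitinase, and the counts were 5 in enterocyte-like and 2 in pgant4 cells for genes higher in esgts/D30A and 1 in progenitor-like and 2 in enteroendocrine-like cells for genes above other cells. With no filter on genes or mitochondrial UMIs, the log2 ratio was 0.75 in enterocyte-like cells for summed mucin, -1.26 in enterocyte-like and -1.45 in Peritrophin-15 cells for summed peritrophin and 0.0218 in enterocyte-like cells for summed chitinase, and the counts were 5 in enteroendocrine-like cells for genes lower in esgts/D30A. With the libraries merged without integration, the log2 ratio was 0.89 in enterocyte-like and 0.61 in pgant4 cells for summed mucin, -1.12 in enterocyte-like and 0.12 in Peritrophin-15 cells for summed peritrophin, -0.42 in enterocyte-like and -2.36 in pgant4 cells for summed chitinase and 0.14 in Peritrophin-15 cells for Peritrophin-15a. With median-of-ratios scaling, the log2 ratio was 0.24 in enterocyte-like and 1.62 in pgant4 cells for summed mucin, -1.62 in enterocyte-like and -1.72 in Peritrophin-15 cells for summed peritrophin and -0.53 in enterocyte-like and -1.29 in pgant4 cells for summed chitinase, and the counts were 2 in pgant4 cells for genes higher in esgts/D30A. As means over cells, the log2 ratio was 1.29 in enterocyte-like, 2.14 in progenitor-like, 0.76 in enteroendocrine-like and 1.13 in pgant4 cells for summed mucin, -0.84 in enterocyte-like and -0.94 in Peritrophin-15 cells for summed peritrophin, 0.99 in enterocyte-like and -0.89 in pgant4 cells for summed chitinase and 0.0934 in pgant4 cells for Muc68E, and the counts were 5 in enterocyte-like, 2 in pgant4 and 2 in Peritrophin-15 cells for genes higher in esgts/D30A and 2 in enterocyte-like and 1 in Peritrophin-15 cells for genes lower in esgts/D30A. Without barcodes over 100000 UMIs, a choice made after seeing the data, the log2 ratio was 0.78 in enterocyte-like and 1.05 in pgant4 cells for summed mucin, -1.24 in enterocyte-like and -2.06 in Peritrophin-15 cells for summed peritrophin, -0.39 in enterocyte-like and -1.33 in pgant4 cells for summed chitinase and 0.65 in pgant4 cells for Muc68E, and the counts were 1 in progenitor-like and 2 in enteroendocrine-like cells for genes above other cells, 2 in pgant4 cells for genes higher in esgts/D30A and 3 in pgant4 cells for genes lower in esgts/D30A. Without the cell richest in these genes, the log2 ratio was -1.11 in enterocyte-like and -1.48 in Peritrophin-15 cells for summed peritrophin and -0.94 in pgant4 cells for summed chitinase. With all variable genes used in clustering, the log2 ratio was -0.0315 in enterocyte-like cells for summed chitinase. With a minimum of 50 UMIs, the counts were 2 in progenitor-like cells for genes higher in esgts/D30A and 1 in enteroendocrine-like cells for genes lower in esgts/D30A. With a minimum of 10 UMIs, the counts were 6 in enteroendocrine-like cells for genes lower in esgts/D30A and 2 in Peritrophin-15 cells for genes higher in esgts/D30A. With classes defined by single transcripts, the log2 ratio was 0.96 in progenitor-like, -0.39 in enteroendocrine-like and 0.43 in pgant4 cells for summed mucin, -0.51 in enteroendocrine-like and 1.24 in pgant4 cells for Cht4, 2.29 in pgant4 cells for summed chitinase and 3.69 in pgant4 cells for Cht8, and the counts were 11 in progenitor-like and 3 in pgant4 cells for genes higher in esgts/D30A, 4 in progenitor-like and 3 in pgant4 cells for genes above other cells and 2 in pgant4 cells for genes lower in esgts/D30A. With no doublet removal, the log2 ratio was -1.04 in enteroendocrine-like cells for Cht4, 1.32 in pgant4 cells for summed mucin and -1.60 in pgant4 cells for summed chitinase, and the counts were 1 in enteroendocrine-like and 2 in pgant4 cells for genes higher in esgts/D30A, 5 in enteroendocrine-like cells for genes lower in esgts/D30A and 2 in enteroendocrine-like cells for genes above other cells. With at least 2 UMIs required, the share of progenitor-like cells was 41.8% in esgts/D30A and 0.317% in esgts/+ for Muc68D and 23.2% in esgts/D30A and 41.3% in esgts/+ for Peritrophin-15a. After thinning to 600 UMIs, the share of progenitor-like cells was 15.4% in esgts/D30A and 1.30% in esgts/+ for Muc68D and 7.53% in esgts/D30A and 12.97% in esgts/+ for Peritrophin-15a. For single genes, only the 23 ratios of 2-fold or more in the main run, of genes with at least 200 UMIs, were followed. Of their 266 values under these settings, 259 kept their direction, and those that turned are given above. Smaller ratios were not followed, so these counts do not speak for them. At a cluster resolution of 1.2, none of 46 values moved beyond its counting interval or, for counts of genes, by over 1.5 times. The cause of each change was not tested. Classes defined by single transcripts gave no enterocyte-like or Peritrophin-15 cells. With 1 library for each genotype no replicate could be left out. No paired analysis was possible because each genotype had 1 library. The 35 pgant4 cells of esgts/+ held few UMIs, and low genes could not be compared there at this depth.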
